A study of Mus musculus with 9 samples.

Results

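The vacuolar proton pump (V-ATPase) and the machinery that recruits the kinase complex mTORC1 to the lysosome were followed gene by gene in mouse embryonic stem (ES) cells. The genes were taken by symbol: every row of the count table whose symbol starts with Atp6v, the accessory subunit genes Atp6ap1 and Atp6ap2, the Ragulator genes Lamtor1 to Lamtor5, the Rag GTPase genes, Flcn, Fnip1 and Fnip2, the GATOR1 genes Nprl2, Nprl3 and Depdc5, the mTORC1 genes Mtor, Rptor, Mlst8, Akt1s1 and Deptor, and Rheb, Tsc1 and Tsc2. Of 48 such rows, 43 reached at least 10 counts summed over the 9 libraries, out of 24421 rows in all. The other rows were Atp6v0c with 4 counts, Atp6v0d2 and Atp6v1e2 with 6 counts each, and Atp6v0c-ps2 and Atp6v1g3 with 0 counts.

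RNA was sequenced from D3 cells, a mouse ES cell line, in 3 groups of 3 libraries. The LAMP2A+DM-αKG cells overexpressed LAMP2A, the lysosomal membrane protein that serves as receptor of chaperone-mediated autophagy, and received 4 mM DM-αKG (dimethyl α-ketoglutarate, a cell-permeable ester of the metabolite α-ketoglutarate) for 72 h. The LAMP2A cells overexpressed LAMP2A without DM-αKG, and the VT cells stably carried the pCDH control vector. All groups grew feeder-free on gelatin, with fetal bovine serum and ESGRO, a leukemia inhibitory factor preparation, in the medium. The labels do not say whether a line was 1 clone or a pool, nor whether each library stands for its own culture, so a p-value here reflects library-to-library spread alone, which may be technical. VT cells given DM-αKG were not analysed here.

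The V-ATPase pumps protons into the lysosome. Its V1 sector, in the cytosol, hydrolyses ATP, and its V0 sector, in the membrane, carries the protons; several subunits have more than 1 gene, and the copies are often used in different tissues. When amino acids are plentiful, the V-ATPase and Ragulator act on the Rag GTPases, which work as pairs of RagA or RagB with RagC or RagD and bring mTORC1 to the lysosomal surface, where the GTPase Rheb activates it. GATOR1 switches RagA and RagB off, folliculin (Flcn) with its partners Fnip1 and Fnip2 acts on RagC and RagD, and the TSC complex switches Rheb off.

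Library totals ran from 23636074 to 32809875 counts. Levels are given as CPM, counts scaled to the TMM-adjusted library total, and changes as log2 fold changes from edgeR's quasi-likelihood test, with Benjamini-Hochberg adjustment over all 14513 genes tested and a threshold of 0.05. Lamp2, the introduced gene, stood at 99.3, 95.3 and 96.9 CPM in the LAMP2A+DM-αKG libraries, 406.8, 403.0 and 403.0 CPM in the LAMP2A libraries, and 57.5, 56.9 and 60.0 CPM in the VT libraries; the counts do not separate the LAMP2A splice form. The groups did not overlap, and Lamp2 was thus lower in cells given DM-αKG than in LAMP2A cells without it. The ES cell label was checked against 8 marker genes, Pou5f1, Sox2 and Nanog among them. Their summed level was 5926.8 to 5951.1 CPM in LAMP2A+DM-αKG, 1770.5 to 1776.8 CPM in LAMP2A and 7142 to 7434 CPM in VT, and all 8 were lower in LAMP2A than in VT. Marker sums of 3 other cell types were highest in LAMP2A. For mesenchyme, fibroblasts and smooth muscle the sum was 15.1 to 19.7 CPM in LAMP2A+DM-αKG, 2031 to 2067 CPM in LAMP2A and 12.0 to 13.2 CPM in VT. Most of it in LAMP2A came from Tagln and Acta2, with means of 1404 and 485.4 CPM. Of these 8 markers, 7 rose in LAMP2A against VT and 1, Thy1, fell. For trophoblast it was 106.2 to 110.8 CPM, 1216.1 to 1231.6 CPM and 76.6 to 81.4 CPM in LAMP2A+DM-αKG, LAMP2A and VT. Elf5 was at 0 in LAMP2A+DM-αKG and VT and at a mean of 0.0205 CPM in LAMP2A. Most of the sum in LAMP2A came from Krt8 and Krt18, with means of 619.1 and 461.4 CPM. All 7 tested markers rose in LAMP2A against VT, but Eomes was highest in LAMP2A+DM-αKG, at 20.9 CPM against 18.1 CPM in LAMP2A. For primitive and visceral endoderm it was 572.2 to 612.8 CPM in LAMP2A+DM-αKG, 1193.4 to 1205.5 CPM in LAMP2A and 381.0 to 415.5 CPM in VT. Lama1 gave the largest part in LAMP2A, with a mean of 736.2 CPM, and all 8 markers rose in LAMP2A against VT. Markers of macrophages and osteoclasts summed to 52.4 to 54.7 CPM in LAMP2A+DM-αKG, 18.0 to 20.8 CPM in LAMP2A and 42.9 to 47.2 CPM in VT, and the macrophage marker Adgre1 was at 0 in all groups, with Ptprc at 0 in LAMP2A and Csf1r at 0 in VT. The markers and Lamp2 moved with the groups compared below, and their part in the results was not tested. In these bulk libraries, fewer cells of a type and less RNA per cell cannot be told apart.

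Most of the 43 genes changed by small folds; those past 1.5-fold in LAMP2A against VT were Atp6v0a1, Atp6v0a4, Atp6v1a, Atp6v1c2 and Atp6v1d of the pump, Rragb, Rragc and Rragd of the Rag GTPases, and Deptor. In LAMP2A against VT, 12 of them rose and 23 fell, 81.4% in all, where 43% of all tested genes rose and 42.1% fell (85.1% in all). Changes of at least 1.5-fold were fewer: 4 genes of the set rose and 5 fell that far, 20.9% of the set, against 46.9% of all tested genes (27.6% rose and 19.2% fell). The median log2 fold change was -0.17 for the set and 0.01 for all genes, and the median size of change, in either direction, was 1.29-fold for the set and 1.46-fold for all genes. With DM-αKG added (LAMP2A+DM-αKG against LAMP2A), 24 genes rose and 11 fell, 81.4% of the set, against 83.2% of all tested genes (41.1% rose and 42.1% fell). At 1.5-fold, 3 rose and 3 fell, 14% of the set against 41.7% of all genes (16.4% rose and 25.4% fell), and the median size of change was 1.24-fold for the set and 1.39-fold for all genes. In LAMP2A+DM-αKG against VT, 14 rose and 19 fell, 76.7% of the set against 58.7% of all genes (29.3% in each direction). The median size of change was nevertheless smaller in the set, at 1.11-fold against 1.15-fold for all genes. Here 5 genes rose and 0 fell by at least 1.5-fold, 11.6% of the set against 14.9% of all genes (8.58% rose and 6.3% fell). Without VT replicate 1 the 5 became 3. The 5 were Atp6v0a4, Rragd, Atp6v1b1, Atp6v1c2 and Atp6v1g2. The last 3 averaged only 0.448, 0.452 and 1.29 CPM in LAMP2A+DM-αKG. The calls of Atp6v1c2 and Atp6v1g2 did not hold under all alternatives. Each pair of these comparisons shares 1 group of libraries. The first of them shares the LAMP2A libraries with the second, so opposite directions in those comparisons are not independent of each other.

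**Figure D1:**
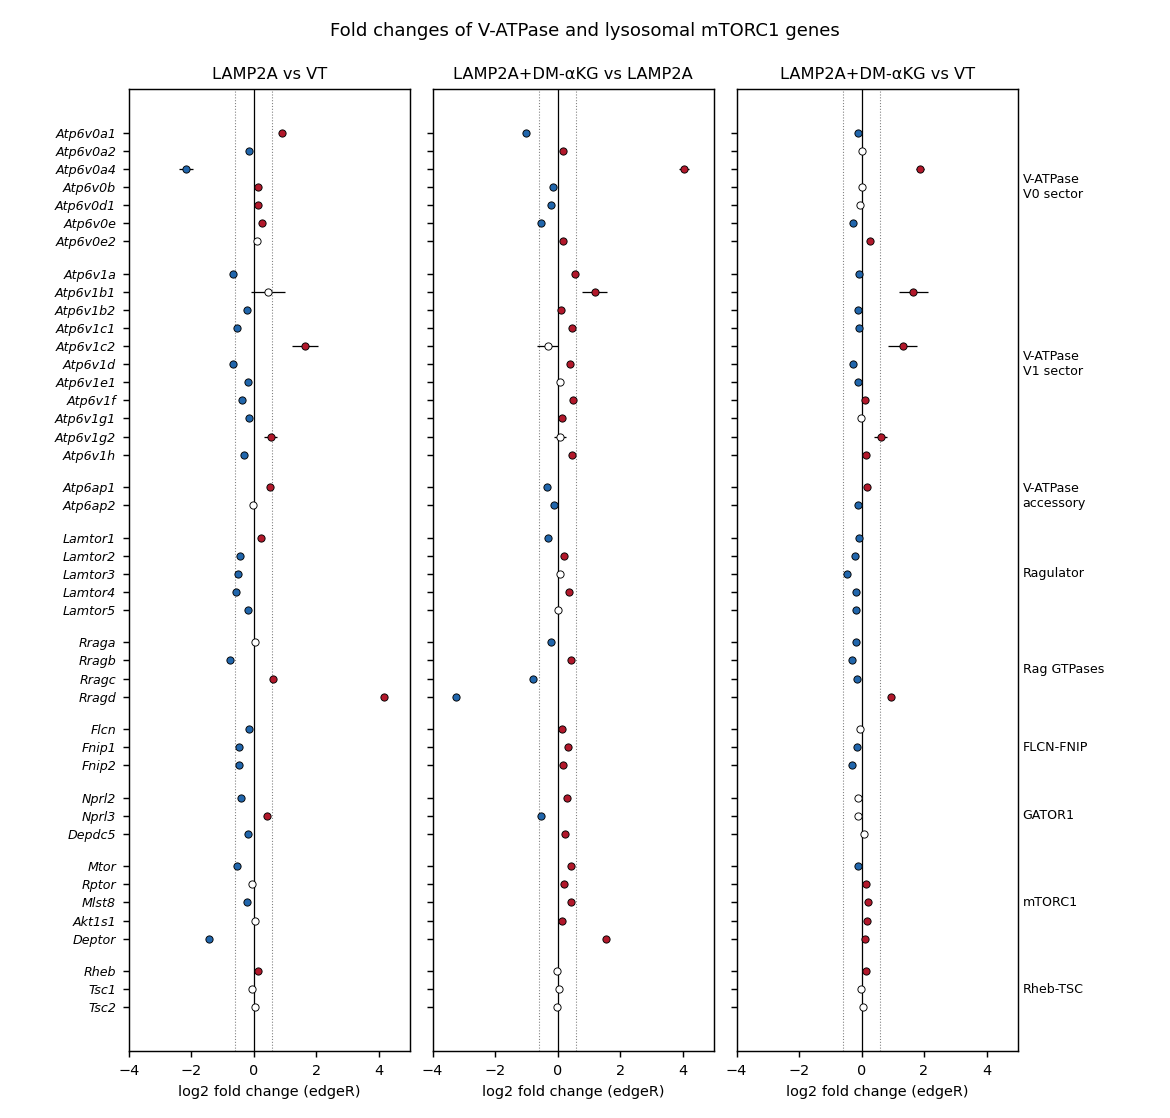
Log2 fold change of each of the 43 genes (x axis, with its standard error) in LAMP2A against VT, LAMP2A+DM-αKG against LAMP2A and LAMP2A+DM-αKG against VT, ordered by role down the page; filled points passed the test (red higher, blue lower), white points did not, and dotted lines mark 1.5-fold. Rragd lies at 4.18 in LAMP2A against VT and Atp6v0a4 at 4.04 in LAMP2A+DM-αKG against LAMP2A, while most genes lie inside the dotted lines.

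**Figure D2:**
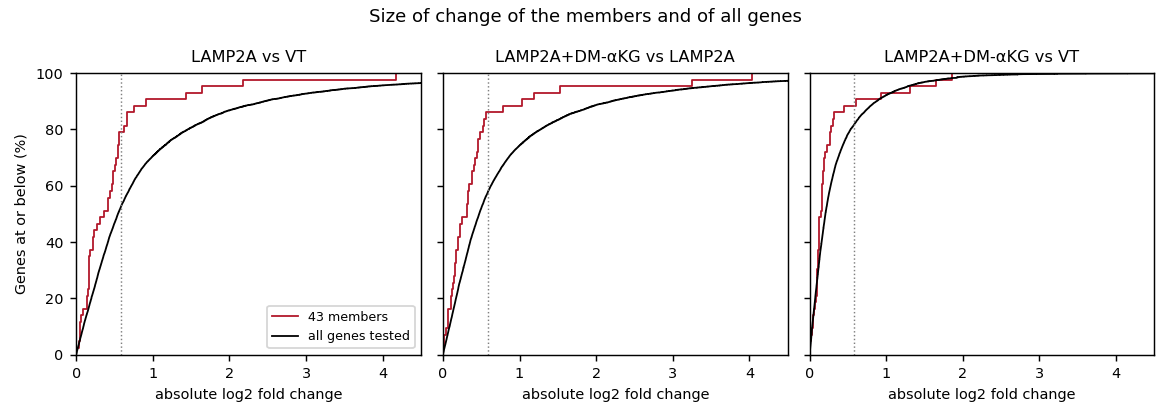
Share of genes (y axis, %) whose absolute log2 fold change is at or below the value on the x axis, for the 43 genes and for all 14513 tested genes, in each comparison; the dotted line marks 1.5-fold. The curve of the set rises earlier than that of all genes, with median sizes of 1.29-fold against 1.46-fold in LAMP2A against VT.

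Many lysosomal genes carry the CLEAR element near their start, the site known to be bound by TFEB and its relatives, whose core TCACGTGA contains the E-box CACGTG; both motifs read the same on either strand. RefSeq promoter windows (GRCm38.p6, 250 bases before to 50 after the start) were matched by symbol for 36 of the 43 genes and searched for both. The core was found in 3 of the 36 genes (8.33%), against 2.04% of the 10909 tested genes with a window and 1.12% of all 27025 genes with one. An E-box was found in 10 of the 36 genes (27.8%), against 11.7% and 8.09% of the same backgrounds. The stretches around the 3 cores are shown because these promoters carry the full lysosomal core and belong to 3 pump subunits; capitals mark the core. That of Atp6v0d1 lies at chr8:105566045-105566098 (minus strand), that of Atp6v1a at chr16:44139354-44139421 (minus strand) and that of Atp6v0e at chr17:26676368-26676415 (plus strand), each written 5′ to 3′ on the strand of the gene.
Atp6v0d1: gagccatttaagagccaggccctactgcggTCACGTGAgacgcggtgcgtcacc
Atp6v1a: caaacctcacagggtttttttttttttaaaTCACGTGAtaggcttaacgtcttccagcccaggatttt
Atp6v0e: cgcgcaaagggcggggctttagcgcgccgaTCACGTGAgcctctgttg

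The 3 genes did not move alike. In LAMP2A against VT, Atp6v0d1 and Atp6v0e rose 1.10-fold and 1.21-fold and Atp6v1a fell 1.58-fold. Between LAMP2A+DM-αKG and LAMP2A, Atp6v0d1 and Atp6v0e fell 1.15-fold and 1.45-fold and Atp6v1a rose 1.48-fold. Of the 10 genes with an E-box, Atp6v0b, Atp6v0d1, Atp6v0e, Lamtor1, Rragc and Rheb rose in LAMP2A against VT, while Atp6v1a, Lamtor4, Rragb and Fnip1 fell, beside 43% of all tested genes that rose and 42.1% that fell. A match is a description of these letters and does not show a bound site.

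The pump's sectors differed in their counts. Of the 7 V0 genes, 4 rose and 2 fell in LAMP2A against VT. Of the 11 V1 genes, 2 rose and 8 fell. Among all tested genes, 43% rose and 42.1% fell in that comparison. The V0 genes that rose were Atp6v0a1, Atp6v0b, Atp6v0d1 and Atp6v0e, which encode one form of the large subunit a, the proteolipid c″, subunit d and subunit e. Apart from Atp6v0a1 their changes were small, at 1.10-fold to 1.21-fold. The V0 genes that fell were Atp6v0a2 and Atp6v0a4. The V1 genes that rose, Atp6v1c2 and Atp6v1g2, stood below 1.4 CPM in all libraries. Of them, Atp6v1c2 passed the filter for expressed genes only with the LAMP2A libraries, where its mean was highest. The V1 genes that fell were the only or main gene of each V1 subunit: A (Atp6v1a), B (Atp6v1b2), C (Atp6v1c1), D (Atp6v1d), E (Atp6v1e1), F (Atp6v1f), G (Atp6v1g1) and H (Atp6v1h), by 1.12-fold for Atp6v1g1 to 1.59-fold for Atp6v1d. The LAMP2A+DM-αKG cells set against LAMP2A showed other counts: 3 V0 genes rose and 4 fell, and 8 V1 genes rose and 0 fell. Among all tested genes, 41.1% rose and 42.1% fell there. Atp6v1b1, a rarely counted copy that passed the filter for expressed genes only through the LAMP2A+DM-αKG libraries, was among the V1 genes that rose. Of the 8 main V1 copies, 7 rose and Atp6v1e1 did not pass, at 1.04-fold (edgeR adjusted p = 0.0971).

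Atp6v1a (mm10 chr16:44085402-44139705), which encodes the catalytic subunit that binds and splits ATP, stood at 279.8, 284.9 and 280.1 CPM in LAMP2A+DM-αKG, 186.7, 191.2 and 192.5 CPM in LAMP2A, and 299.8, 301.2 and 300.3 CPM in VT. The LAMP2A libraries were the low ones and no groups overlapped. The log2 fold change was -0.66 ± 0.028 (SE) in LAMP2A against VT, 0.57 ± 0.028 in LAMP2A+DM-αKG against LAMP2A and -0.09 ± 0.028 in LAMP2A+DM-αKG against VT (edgeR adjusted p = 2.47e-21, 2.73e-19 and 0.00474). Atp6v1d (chr12:78840725-78861638), whose product forms the central shaft that turns inside V1, had 71.5, 74.2 and 70.8 CPM in LAMP2A+DM-αKG, 57.2, 54.7 and 53.8 CPM in LAMP2A, and 80.4, 92.6 and 89.8 CPM in VT. Its groups did not overlap either, and cells given DM-αKG stayed 1.22-fold below VT. Atp6v1b2, the partner of the catalytic subunit in the V1 ring, averaged 251.5 ± 1.35 CPM in LAMP2A+DM-αKG, 233.4 ± 1.499 CPM in LAMP2A and 272.7 ± 2.54 CPM in VT (SD, n = 3 each). Atp6v1c1, a stator subunit linked to assembly of the sectors, averaged 102.4 ± 0.67 CPM, 74.3 ± 1.04 CPM and 108.8 ± 4.42 CPM in LAMP2A+DM-αKG, LAMP2A and VT. Atp6v1h, which is needed for ATP hydrolysis to drive the assembled pump, and Atp6v1f were 1.24-fold and 1.29-fold lower in LAMP2A than in VT. In LAMP2A+DM-αKG both exceeded VT, by 1.12-fold and 1.08-fold, whereas Atp6v1a, Atp6v1b2, Atp6v1c1, Atp6v1d and Atp6v1e1 remained below VT by 1.06-fold to 1.22-fold. Of these calls against VT, that of Atp6v1c1 was lost in 6 of 15 alternatives, among them library totals as the only scaling (adjusted p = 0.0627 in edgeR), and that of Atp6v1f without VT replicate 3 or LAMP2A+DM-αKG replicate 3 (edgeR adjusted p = 0.0618 and 0.0575).

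Subunit a, which carries the proton path and steers the pump to a compartment, has 4 genes, and their balance shifted. Atp6v0a1 (chr11:101009452-101063719) stood at 36.7, 36.6 and 36.5 CPM in LAMP2A+DM-αKG, 74.7, 73.5 and 75.2 CPM in LAMP2A, and 41.1, 38.6 and 39.0 CPM in VT. The LAMP2A libraries were far above both other groups. Its log2 fold change was 0.91 ± 0.038 in LAMP2A against VT and -1.03 ± 0.038 in LAMP2A+DM-αKG against LAMP2A (edgeR adjusted p = 9.16e-22 and 4.59e-23). In LAMP2A+DM-αKG against VT it was -0.11 (edgeR adjusted p = 0.0242), a call that ended with DESeq2 (adjusted p = 0.0584), with library totals as the only scaling, with those groups fitted alone, and without any 1 of the LAMP2A+DM-αKG libraries or VT replicate 1. Atp6v0a4 (chr6:38048483-38124586), the copy known for acid secretion in kidney and inner ear, moved the other way. It stood at 6.39, 6.43 and 6.65 CPM in LAMP2A+DM-αKG, 0.304, 0.404 and 0.485 CPM in LAMP2A, and 1.93, 1.81 and 1.64 CPM in VT. The LAMP2A+DM-αKG libraries were the high ones and no groups overlapped. Atp6v0a4 was 4.53-fold lower in LAMP2A than in VT, 16.4-fold higher in LAMP2A+DM-αKG than in LAMP2A and 3.63-fold higher in LAMP2A+DM-αKG than in VT (edgeR adjusted p = 8.91e-11, 5.20e-22 and 4.35e-15). Of its annotated exon bases, 6.45% overlap other genes, chiefly D630045J12Rik on the same strand, whose log2 fold change was 1.42 in LAMP2A against VT and -0.33 in LAMP2A+DM-αKG against LAMP2A, opposite in sign to Atp6v0a4.

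On a per-length scale (CPM per kb of annotated exon), the subunit a genes together, with Tcirg1, the copy known from the osteoclast pump, made 21.5 ± 0.19 CPM per kb in LAMP2A+DM-αKG, 30.3 ± 0.45 in LAMP2A and 20.4 ± 0.79 in VT. Atp6v0a2, the copy known from Golgi and endosomes, supplied 40.4%, 25.5% and 42.3% of that sum in LAMP2A+DM-αKG, LAMP2A and VT. Atp6v0a1 supplied 26.0%, 37.5% and 29.6%, and Tcirg1 27.5%, 36.7% and 26.4%, in the same groups. Atp6v0a4 supplied 6.08% in LAMP2A+DM-αKG, 0.264% in LAMP2A and 1.77% in VT. Thus Atp6v0a2 held the largest share in LAMP2A+DM-αKG and VT, and Atp6v0a1 and Tcirg1 both exceeded it in LAMP2A; the shares of those 2 genes in LAMP2A lay at 37.0 to 38.3% and 36.5 to 37.2%. Tcirg1 itself is outside the 43 genes and averaged 27.2 ± 0.59 CPM in LAMP2A+DM-αKG, 51.2 ± 1.02 CPM in LAMP2A and 24.8 ± 1.48 CPM in VT. It rose 2.07-fold in LAMP2A against VT. Of the macrophage and osteoclast markers, 4 were tested in that comparison: Ctsk and Itgam rose 1.96-fold and 1.54-fold, at means of 0.623 and 2.57 CPM in LAMP2A and 0.321 and 1.68 CPM in VT, while Cd68 and Acp5, which carry most of the marker sum, fell 2.905-fold and 2.498-fold. Their part in the rise of Tcirg1 was not tested.

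Subunits B, C and G, which also have more than 1 gene, each had a dominant copy. Atp6v1b2, Atp6v1c1 and Atp6v1g1 supplied at least 98.1% of their subunit's CPM per kb in the mean of each group. Subunit e, a small membrane subunit, was divided between Atp6v0e and Atp6v0e2. Atp6v0e2 supplied 34.5 ± 2.0% in LAMP2A+DM-αKG, 24.2 ± 0.92% in LAMP2A and 26.6 ± 1.8% in VT, and no LAMP2A+DM-αKG library overlapped the other groups. Atp6v0e stood at 45.1, 48.2 and 45.2 CPM in LAMP2A+DM-αKG, 66.9, 66.6 and 67.7 CPM in LAMP2A, and 54.0, 57.2 and 55.4 CPM in VT. Cells given DM-αKG were thus the lowest group for Atp6v0e, 1.20-fold below VT (edgeR adjusted p = 7.25e-07). Atp6v0e2 was 1.21-fold higher in LAMP2A+DM-αKG than in VT and did not pass in LAMP2A against VT (log2 fold change 0.09, edgeR adjusted p = 0.216).

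The rarely counted copies rest on few reads. Atp6v1b1, the B subunit copy known from acid-secreting kidney cells, had 9, 13 and 14 counts in LAMP2A+DM-αKG, 3, 11 and 4 in LAMP2A, and 4, 3 and 4 in VT. Its rise in LAMP2A+DM-αKG against LAMP2A had a log2 fold change of 1.18 (edgeR adjusted p = 0.00825). That call was lost with DESeq2 (adjusted p = 0.0501) and without LAMP2A replicate 1 (edgeR adjusted p = 0.0784). The rise against VT (1.65) passed at an edgeR adjusted p of 0.00253. Atp6v1b1 passed the filter for expressed genes only through the LAMP2A+DM-αKG libraries, where it was highest. The p-values of its rises in that group are thus not independent of the filter. Atp6v1c2 had 6, 20 and 10 counts in LAMP2A+DM-αKG, 20, 16 and 16 in LAMP2A, and 3, 6 and 5 in VT. Pdia6, on the opposite strand, overlaps 2.3% of its exon bases, with 200540 counts in all and a log2 fold change of 0.61 in LAMP2A against VT, and the strand setting of counting is not known. Atp6v1c2 rose in LAMP2A against VT (1.64). It passed the filter for expressed genes only with the LAMP2A libraries, where its mean was highest. That rise is thus not independent of the filter. Its rise in LAMP2A+DM-αKG against VT (1.31) was lost without VT replicate 1 and without LAMP2A+DM-αKG replicate 2 (edgeR adjusted p = 0.0565 and 0.237). Atp6v1g2, a G subunit copy known from neurons, averaged 1.29 ± 0.12 CPM in LAMP2A+DM-αKG, 1.23 ± 0.074 CPM in LAMP2A and 0.841 ± 0.074 CPM in VT. Its rise passed in both groups against VT with edgeR (adjusted p = 0.0137 for LAMP2A+DM-αKG and 0.0168 for LAMP2A) but not with DESeq2 (0.0653 and 0.0654). Without 1 library it missed the threshold in LAMP2A against VT (VT replicate 1 or LAMP2A replicate 2, edgeR adjusted p = 0.0516 and 0.0535) and in LAMP2A+DM-αKG against VT (LAMP2A+DM-αKG replicate 3, 0.0542). Atp6v0c, which encodes the main proteolipid of the V0 ring in all cells, is listed with 4 counts in all 9 libraries. Of its 50-base transcript stretches, 10.8% also occur in the pseudogenes Atp6v0c-ps1 and Atp6v0c-ps2, no other annotated exon overlaps it, and the cause of its low count was not tested.

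The accessory subunits split. Atp6ap1, which helps V0 assemble, stood at 90.4, 84.9 and 86.8 CPM in LAMP2A+DM-αKG, 110.1, 110.0 and 110.9 CPM in LAMP2A, and 80.7, 76.7 and 73.0 CPM in VT. It rose 1.44-fold in LAMP2A against VT, and cells given DM-αKG lay between the other groups without overlap. Atp6ap2, the prorenin receptor, stood at 95.3, 90.2 and 89.6 CPM in LAMP2A+DM-αKG, 100.6, 95.6 and 98.9 CPM in LAMP2A, and 93.2, 102.8 and 104.1 CPM in VT. Its LAMP2A and VT libraries overlapped, and it did not pass in LAMP2A against VT (edgeR adjusted p = 0.535).

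Among the Rag GTPases, Rragd gave the largest change of the 43 genes in LAMP2A against VT. Rragd (chr4:32983037-33022180) encodes RagD, one of the interchangeable partners of RagA and RagB. It stood at 17.7, 19.8 and 18.4 CPM in LAMP2A+DM-αKG, 174.2, 178.7 and 178.9 CPM in LAMP2A, and 9.34, 10.1 and 9.89 CPM in VT. No groups overlapped, and cells given DM-αKG lay between VT and LAMP2A, nearer to VT. The log2 fold change was 4.18 ± 0.046 in LAMP2A against VT, an 18.1-fold rise that ranked 557 of 14513 genes tested. It was -3.25 ± 0.041 in LAMP2A+DM-αKG against LAMP2A, 9.50-fold lower, and 0.93 ± 0.064 in LAMP2A+DM-αKG against VT, 1.90-fold higher (edgeR adjusted p = 6.04e-39, 3.47e-37 and 1.36e-14).

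Rragc (chr4:123917446-123936997), which encodes the other such partner, RagC, moved in the same direction but less far. It stood at 46.5, 47.0 and 47.0 CPM in LAMP2A+DM-αKG, 81.4, 80.4 and 78.9 CPM in LAMP2A, and 50.8, 52.1 and 53.6 CPM in VT. The log2 fold change was 0.62 ± 0.036 in LAMP2A against VT, -0.78 ± 0.036 in LAMP2A+DM-αKG against LAMP2A and -0.16 ± 0.039 in LAMP2A+DM-αKG against VT, so that in cells given DM-αKG Rragc was below VT while Rragd was above it. Per kb of annotated exon, Rragd supplied 20.4 ± 0.88% of the RagC and RagD total in LAMP2A+DM-αKG, 58.8 ± 0.71% in LAMP2A and 10.8 ± 0.31% in VT. The total itself was 17.6, 58.3 and 17.5 CPM per kb in LAMP2A+DM-αKG, LAMP2A and VT.

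The RagA and RagB side did not rise with it. Rragb (chrX:153139981-153171943) stood at 26.1, 25.8 and 26.4 CPM in LAMP2A+DM-αKG, 18.7, 19.0 and 20.1 CPM in LAMP2A, and 29.9, 33.2 and 33.9 CPM in VT. The LAMP2A libraries were the lowest and the VT libraries the highest, with log2 fold changes of -0.75 ± 0.053 in LAMP2A against VT, 0.44 ± 0.054 in LAMP2A+DM-αKG against LAMP2A and -0.31 ± 0.051 in LAMP2A+DM-αKG against VT. Rraga, per kb the most abundant of the 43 genes in each group, stood at 124.9, 124.7 and 130.5 CPM in LAMP2A+DM-αKG, 148.2, 148.2 and 145.9 CPM in LAMP2A, and 140.7, 150.0 and 138.4 CPM in VT. LAMP2A and VT overlapped (log2 fold change 0.04, edgeR adjusted p = 0.208), and LAMP2A+DM-αKG lay below both. Rragb supplied 12.9%, 8.56% and 13.9% of the RagA and RagB total in LAMP2A+DM-αKG, LAMP2A and VT.

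**Figure D3:**
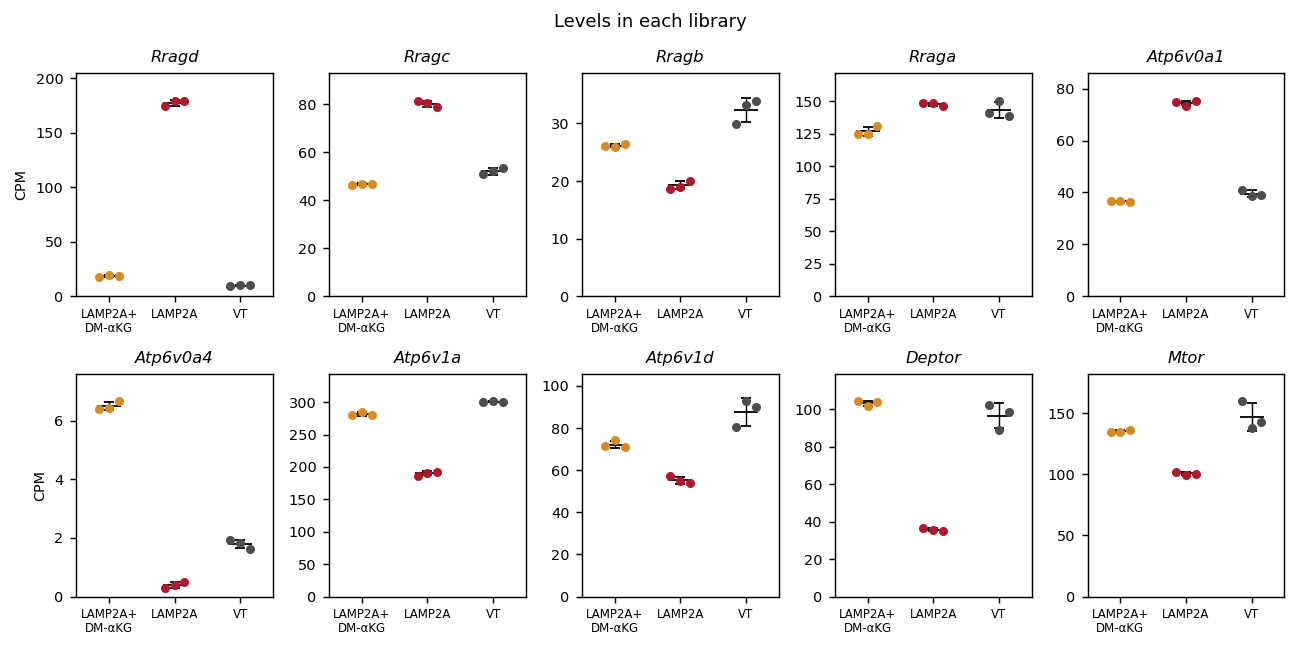
Level in CPM (y axis, from 0) of 10 genes in each library, grouped as LAMP2A+DM-αKG, LAMP2A and VT, with points for libraries and the mean and SD of each group. Rragd, Rragc and Atp6v0a1 are highest in LAMP2A, Atp6v0a4 is highest in LAMP2A+DM-αKG, and Rragb, Atp6v1a, Atp6v1d, Deptor and Mtor are lowest in LAMP2A.

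**Figure D4:**
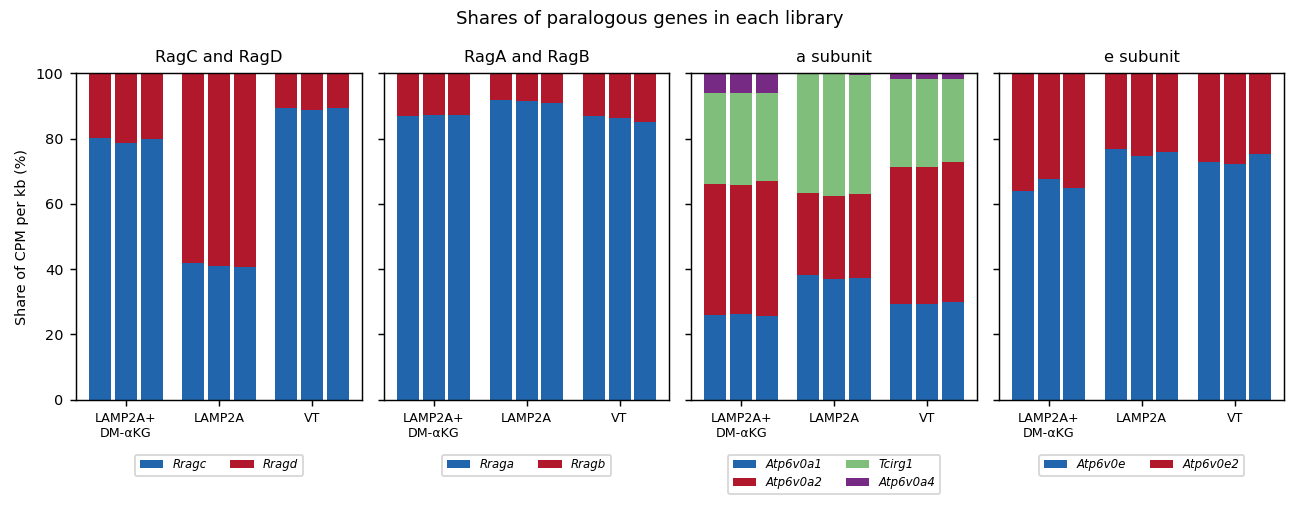
Share of each gene (y axis, %) in the summed CPM per kb of its family, 1 bar per library, grouped as LAMP2A+DM-αKG, LAMP2A and VT, for RagC and RagD, RagA and RagB, subunit a and subunit e. Rragd takes 58.0 to 59.4% of the RagC and RagD total in the LAMP2A libraries and 10.6 to 11.2% in the VT libraries.

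Ragulator, the anchor of the Rag GTPases on the lysosome, fell in 4 of its 5 genes in LAMP2A against VT. In that comparison 42.1% of all tested genes fell. Lamtor2, Lamtor3, Lamtor4 and Lamtor5 fell by 1.36-fold, 1.43-fold, 1.47-fold and 1.13-fold. Lamtor1, whose lipid anchor holds the complex in the membrane, rose 1.17-fold. It stood at 73.0, 68.1 and 72.8 CPM in LAMP2A+DM-αKG, 85.5, 93.1 and 89.3 CPM in LAMP2A, and 78.5, 78.6 and 71.7 CPM in VT. Its LAMP2A libraries were above the others without overlap, while LAMP2A+DM-αKG and VT overlapped. Lrrc51, on the opposite strand, covers 18.7% of its exon bases and had a log2 fold change of 1.34 in LAMP2A against VT, from 401 counts over the 9 libraries. Against VT, in LAMP2A+DM-αKG all 5 Ragulator genes were lower, by 1.07-fold for Lamtor1 to 1.37-fold for Lamtor3. The share of all tested genes that were lower there was 29.3%. The call of Lamtor1 there (edgeR adjusted p = 0.0445) was lost in 11 of 15 alternatives, DESeq2 among them (adjusted p = 0.0826), and that of Lamtor4 without VT replicate 2 (edgeR adjusted p = 0.136). Lamtor3 averaged 23.3 ± 1.53 CPM in LAMP2A+DM-αKG, 22.5 ± 1.10 CPM in LAMP2A and 32.0 ± 1.26 CPM in VT, and the first of these groups did not pass against the second (log2 fold change 0.06, edgeR adjusted p = 0.315). Lamtor5 likewise did not pass there (log2 fold change 0.00, edgeR adjusted p = 0.959), whereas Lamtor2 and Lamtor4 rose 1.16-fold and 1.30-fold.

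The regulators of the Rag GTPases changed by less than 1.5-fold. Flcn, the activator of GTP hydrolysis by RagC and RagD, and its partners Fnip1 and Fnip2 fell by 1.12-fold, 1.39-fold and 1.40-fold in LAMP2A against VT and rose by 1.09-fold, 1.25-fold and 1.12-fold in LAMP2A+DM-αKG against LAMP2A, where the call of Flcn was lost without LAMP2A replicate 1 (edgeR adjusted p = 0.0521). Fnip2 stood at 54.7, 56.4 and 55.5 CPM in LAMP2A+DM-αKG, 50.9, 49.1 and 48.7 CPM in LAMP2A, and 71.7, 66.7 and 69.9 CPM in VT, so that both groups with LAMP2A lay below VT. In GATOR1, which stimulates GTP hydrolysis by RagA and RagB, Nprl2 and Depdc5 fell by 1.34-fold and 1.14-fold in LAMP2A against VT and Nprl3 rose 1.34-fold. Nprl3 stood at 26.1, 25.5 and 23.9 CPM in LAMP2A+DM-αKG, 35.0, 37.1 and 36.1 CPM in LAMP2A, and 25.9, 28.6 and 26.2 CPM in VT. LAMP2A was the high group, and the other groups overlapped; Mpg, on the opposite strand, covers 17.7% of the exon bases of Nprl3 and had a log2 fold change of -0.10 in LAMP2A against VT. The GATOR1 genes did not pass in LAMP2A+DM-αKG against VT, with log2 fold changes of -0.11 for Nprl2, -0.10 for Nprl3 and 0.06 for Depdc5 (edgeR adjusted p = 0.0702, 0.102 and 0.127).

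Within mTORC1, Deptor had the largest changes in LAMP2A against VT and in LAMP2A+DM-αKG against LAMP2A. Deptor (chr15:55112317-55259271), whose product binds the kinase and inhibits it, stood at 104.1, 101.7 and 103.8 CPM in LAMP2A+DM-αKG, 36.5, 35.6 and 34.9 CPM in LAMP2A, and 102.3, 88.9 and 98.3 CPM in VT. LAMP2A was far below the others, whose ranges overlapped. Deptor was 2.699-fold lower in LAMP2A than in VT and 2.89-fold higher in LAMP2A+DM-αKG than in LAMP2A, with log2 fold changes of -1.43 ± 0.043 and 1.53 ± 0.043 (edgeR adjusted p = 4.70e-26 and 5.65e-27). Against VT the difference in LAMP2A+DM-αKG was 0.10 ± 0.039 (edgeR adjusted p = 0.0288), and that call was lost with DESeq2 (adjusted p = 0.0698), without VT replicate 2 (edgeR adjusted p = 0.262) and without LAMP2A+DM-αKG replicate 1 or 3.

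Mtor, the kinase, stood at 134.3, 134.2 and 136.5 CPM in LAMP2A+DM-αKG, 102.2, 99.5 and 100.6 CPM in LAMP2A, and 159.6, 138.0 and 142.8 CPM in VT. It fell 1.46-fold in LAMP2A against VT and rose 1.34-fold in LAMP2A+DM-αKG against LAMP2A, with no overlap of groups. Mlst8, a subunit that mTORC1 shares with mTORC2, fell 1.16-fold and rose 1.33-fold in the same comparisons. Bricd5, on the opposite strand, covers 22.5% of its exon bases and had 48 counts in all. Rptor, the scaffold that binds substrates, and Akt1s1 (PRAS40, an inhibitor that is also a substrate) did not pass in LAMP2A against VT, with log2 fold changes of -0.05 and 0.04 (edgeR adjusted p = 0.291 and 0.475). All 5 mTORC1 genes rose in LAMP2A+DM-αKG against LAMP2A, by 1.09-fold for Akt1s1 to 2.89-fold for Deptor, beside 41.1% of all tested genes that rose. The call of Akt1s1 there was lost in 5 of 15 alternatives, DESeq2 among them (adjusted p = 0.0650). In LAMP2A+DM-αKG against VT, Rptor, Mlst8, Akt1s1 and Deptor were higher, by 1.07-fold to 1.14-fold, and Mtor was lower. Of these calls, Mtor was lost without VT replicate 1 and Akt1s1 without VT replicate 3 (edgeR adjusted p = 0.134 and 0.0873).

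Rheb rose 1.11-fold in LAMP2A against VT, with 109.8, 106.6 and 101.9 CPM in LAMP2A+DM-αKG, 107.4, 105.9 and 108.2 CPM in LAMP2A, and 93.6, 98.6 and 98.7 CPM in VT. Both groups with LAMP2A were above VT without overlap. Tsc1 and Tsc2, which encode the core of the complex that switches Rheb off, did not pass in any of the 3 comparisons with edgeR (adjusted p of 0.134 to 0.864). Tsc1 averaged 60.4 ± 1.25 CPM in LAMP2A+DM-αKG, 58.8 ± 2.33 CPM in LAMP2A and 61.5 ± 2.29 CPM in VT. Tsc2 averaged 162.3 ± 2.77 CPM, 163.2 ± 3.50 CPM and 157.4 ± 13.9 CPM in LAMP2A+DM-αKG, LAMP2A and VT. Pkd1, on the opposite strand, overlaps 7.2% of the exon bases of Tsc2. It had log2 fold changes of 0.67 in LAMP2A against VT and -0.24 in LAMP2A+DM-αKG against LAMP2A. Its part in the Tsc2 counts was not tested. The log2 fold changes of Tsc1 and Tsc2 lay between -0.06 and 0.05, and a miss of the threshold does not show that levels were equal.

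Per kb of annotated exon, the machinery spans a wide range of levels. In VT, Rraga (88.4 CPM per kb), Atp6v0d1 (59.5), Atp6v1f (56.9), Atp6v1g1 (55.9), Atp6v1b2 (51.4) and Atp6v1a (49.7) stood highest among the 43 genes. The lowest were Atp6v1b1 (0.0323), Atp6v1c2 (0.0814), Atp6v1g2 (0.335), Atp6v0a4 (0.361), Rragd (1.89) and Nprl3 (3.55). Rragd thus stood at 1.89 CPM per kb in VT, well below Rragc at 15.6, and in LAMP2A it stood above it, at 34.3 against 24.0 CPM per kb. In LAMP2A+DM-αKG the order was that of VT, with Rragd at 3.60 and Rragc at 14.0 CPM per kb. Annotated exon length counts every isoform, so levels per kb are approximate between genes.

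The wider pathway was counted in 4 further lists, to be read beside the shares over all tested genes: 43% rose and 42.1% fell in LAMP2A against VT, 41.1% and 42.1% in LAMP2A+DM-αKG against LAMP2A, and 29.3% each way in LAMP2A+DM-αKG against VT. Of 11 tested genes for other V-ATPase subunits and assembly factors, 3 rose and 6 fell in LAMP2A against VT, and Tcirg1 was the member with a change of at least 2-fold. Of 15 tested amino acid sensors and genes of GATOR2 and KICSTOR, 4 rose and 10 fell. Sesn3, a sestrin that binds GATOR2, averaged 15.6 ± 0.43 CPM in LAMP2A+DM-αKG, 31.0 ± 1.19 CPM in LAMP2A and 12.0 ± 0.64 CPM in VT. Castor2, listed under its older symbol Gatsl2 and related to the arginine sensor Castor1, averaged 10.6 ± 0.52 CPM, 15.3 ± 0.076 CPM and 6.95 ± 0.53 CPM in LAMP2A+DM-αKG, LAMP2A and VT. In LAMP2A+DM-αKG against LAMP2A, 8 genes of that list rose and 4 fell, and in the pump list 5 rose and 4 fell.

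Kinases and other inputs to mTORC1 were the list with more rises than falls in LAMP2A against VT, 10 against 3 of 16 tested, with a median log2 fold change of 0.31 beside 0.01 for all genes. Akt1, a kinase that inhibits the TSC complex and PRAS40, averaged 54.1 ± 0.58 CPM in LAMP2A+DM-αKG, 165.5 ± 1.07 CPM in LAMP2A and 46.6 ± 3.19 CPM in VT, a rise of 3.56-fold in LAMP2A against VT. Prkaa2, a catalytic subunit of the energy sensor AMPK, which restrains mTORC1, was 2.07-fold higher in LAMP2A than in VT. Ddit4 (REDD1), a stress-induced inhibitor acting through TSC, averaged 88.5 ± 1.88 CPM in LAMP2A+DM-αKG, 113.1 ± 1.21 CPM in LAMP2A and 36.9 ± 1.75 CPM in VT. It was 3.07-fold higher in LAMP2A and 2.40-fold higher in LAMP2A+DM-αKG than in VT. Of these inputs, 4 rose and 9 fell in LAMP2A+DM-αKG against LAMP2A.

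Among 16 outputs of mTORC1 and genes of mTORC2, 4 rose and 11 fell in LAMP2A against VT, and 10 rose and 4 fell in LAMP2A+DM-αKG against LAMP2A. Ulk1, the autophagy kinase that mTORC1 holds inactive, averaged 192.3 ± 3.23 CPM in LAMP2A+DM-αKG, 91.3 ± 1.69 CPM in LAMP2A and 162.0 ± 7.97 CPM in VT. It fell 1.77-fold in LAMP2A against VT and rose 2.11-fold in LAMP2A+DM-αKG against LAMP2A. Pdcd4, a translation inhibitor that is degraded after phosphorylation by the mTORC1 target S6 kinase, averaged 27.9 ± 1.49 CPM, 57.2 ± 0.43 CPM and 27.4 ± 0.92 CPM in LAMP2A+DM-αKG, LAMP2A and VT. Prr5l, an mTORC2-associated protein, averaged 7.80 ± 0.39 CPM in LAMP2A+DM-αKG, 35.3 ± 1.84 CPM in LAMP2A and 11.8 ± 0.52 CPM in VT, so that it was 3.00-fold higher in LAMP2A and 1.52-fold lower in LAMP2A+DM-αKG than in VT. Against VT, the sensor list had 7 higher and 4 lower genes in LAMP2A+DM-αKG, the inputs 4 and 5, the outputs 4 and 3, and the pump list 2 and 3. All are messenger RNA levels; the activity of the pump and of mTORC1 was not measured in these libraries.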

How the data were processed

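RNA sequencing of 9 libraries of D3 mouse ES cells, 3 per group, was used. The count table deposited by the authors holds unnormalized whole-number counts for each gene symbol. The submitters' processing notes name STAR 2.7.1, HTSeq 0.11.2 and mm10, and the libraries were made with a stranded mRNA kit per the labels' protocols. Which annotation and strand setting HTSeq used is not given in the sources used here. Overlapping genes, antisense genes and close copies are therefore less certain: 11 of the 43 genes share more than 5% of their 50-base transcript stretches with other genes, at most 25.6%. Log2 fold changes and p-values of 2 comparisons, which the authors made (DESeq2 is named in the submitters' processing notes), were deposited as well. For each, the authors' deposited table gave the call found here to 42 of the 43 genes, and log2 fold changes differed by at most 0.035. The deposited score and signal columns of those tables were not used. All 9 count columns were matched to samples by name, and 0 were left unmatched.

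The fit used edgeR 4.0.16 in R 4.3.3: filterByExpr (14513 genes kept, among them all 43), TMM factors, glmQLFit with robust estimation and glmQLFTest, with 3 group means and 6 residual degrees of freedom over 9 libraries. The threshold was an adjusted p of 0.05 (Benjamini-Hochberg). With a common biological coefficient of variation of 2.74%, small changes passed too, so counts at 1.5-fold are given beside. Errors are the SD over 3 libraries or, for log2 fold changes, an approximate standard error from the F statistic. Chi-square per degree of freedom between libraries of a group was 1.18 to 5.63, so none were merged. The fit was tested on simulated data. Exon lengths and coordinates came from GENCODE M21 (the build of mm10) and promoters from RefSeq. Of the 43 genes, 7 had no promoter window, were not searched for motifs and are not singled out here.

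The 43 genes and the wider lists were chosen with earlier results of these data known. Values of every library were given by rule for genes that passed at 1.5-fold in any comparison, except Atp6v1g2. They were also given for some of the gene copies compared with each other, and for some others as examples. Of the wider lists, genes that passed at 2-fold, up to 4 per list by smallest p, were named. A gene of these lists that the rule would name is not reported here. Of 16 sensor genes 1, Bmt2, was not matched and 2 were matched through older symbols. Alternatives were RLE size factors, library totals only, DESeq2 1.42.0, no filterByExpr, the compared groups alone, a replicate block and leaving out each library.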

Additional observations from a re-analysis of the deposited data

How the results depend on the processing

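Counts of the 43 genes past the threshold held within 1.5 times under the alternatives run, with 1 exception: genes at least 1.5-fold higher in LAMP2A+DM-αKG than in VT numbered 5, and 3 without VT replicate 1 (3 to 5 over the 9 fits that left out 1 library). Over those fits, genes higher and lower numbered 11 to 15 and 23 to 25 in LAMP2A against VT, 20 to 25 and 10 to 11 in LAMP2A+DM-αKG against LAMP2A, and 11 to 14 and 16 to 20 in LAMP2A+DM-αKG against VT. At 1.5-fold they numbered 4 to 5 higher and 5 to 6 lower, 2 to 3 higher and 3 to 4 lower, and 3 to 5 higher and 0 lower in the same comparisons. Of the calls of the set, 34 of 35 held under all alternatives in LAMP2A against VT (Atp6v1g2 did not), 30 of 35 in LAMP2A+DM-αKG against LAMP2A (not Akt1s1, Atp6ap2, Atp6v0e2, Atp6v1b1 and Flcn) and 23 of 33 in LAMP2A+DM-αKG against VT (not Lamtor1, Atp6v0a1, Atp6v1c1, Deptor, Atp6v1c2, Atp6v1f, Atp6v1g2, Akt1s1, Lamtor4 and Mtor). Atp6v1c2 was not tested with the groups of the last comparison alone, nor Atp6v1b1 with those of the first. No value that had passed turned its direction among the 11 genes past 1.5-fold; Atp6v1b1 in LAMP2A against VT, which did not pass, had log2 fold changes of -0.25 (without LAMP2A replicate 2) to 0.83 without 1 library, against 0.47. The median of all genes moved by less than 0.1 under each scaling. With the replicate number as a block, 12341, 12065 and 8462 of all genes passed in the 3 comparisons, against 12355, 12081 and 8517 without it, and 35, 35 and 33 of the calls in the set held. The replicate numbers gave no sign of pairing. Correlations of same-numbered libraries' deviations were -0.027 to 0.012 over 9 pairs, and 2 of 9 libraries correlated best with their own number. Counting noise lowers such correlations, so this check cannot show that no batch was shared by number. Genes under about 1 CPM are limited by depth.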
